A study of Homo sapiens with 24 samples.

Results

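The 9 transcripts described here carry the retinoic acid pathway, from synthesis of the ligand to its nuclear receptors. They were RARA, RARB, RARG, RXRA, RXRB, CYP26A1, CYP26B1, ALDH1A1 and ALDH1A2. A peak was taken as a member when the Ensembl identifiers of its row included the GENCODE identifier of one of these genes. This gave 107 peaks of the 228472 peaks in 6 lists of N6-methyladenosine (m6A) peaks, on 9 of the 20046 protein-coding genes of GENCODE release 44.

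Retinoic acid is made from retinal by the ALDH1A dehydrogenases and is removed by the CYP26 hydroxylases. It binds retinoic acid receptors (RARs), which pair with retinoid X receptors (RXRs) on DNA and recruit corepressors without the ligand and coactivators with it. RARB and CYP26A1 are classical target genes of this signal, so the pathway feeds back on itself. In the embryo, retinoic acid from the mesoderm is needed for the early pancreas, and it is added to cultures that direct pluripotent cells to pancreatic progenitors. m6A is a methyl mark on adenosines of mRNA, found mostly in the sequence context called DRACH and most densely around stop codons.

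m6A-seq sequences RNA fragments pulled down with an antibody to m6A (IP) beside the fragments before pull-down (input). The 24 libraries fell into 12 groups of 2, an IP group and an input group for each of 6 populations derived from MEL1 INS GFP/W, a human embryonic stem cell line with a GFP reporter at the INS gene. Batch 1 held undifferentiated cells (hPSC, human pluripotent stem cells), the definitive endoderm (DE) made from them, then pancreatic progenitors (PP) and at last islet-like organoids (hILO), all from mRNA with a SYSY antibody. Wild-type PP (WT PP) and PP in which ALKBH5, an m6A demethylase, had been disrupted with CRISPR-Cpf1 (A5-KO PP) formed batch 2, made from total RNA with a Millipore antibody, rRNA-depleted input and another library kit. Cells carried on to PP or hILO, of both genotypes, received 2 µM retinoic acid on days 7 and 8 of differentiation, and hPSC and DE had not yet received it. The labels did not give which ALKBH5-disrupted line or clone was used. Each list pooled the libraries of its population, so there were no replicate values, no comparison between populations could be tested, and errors given below cover the counting of reads only.

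The sites that recurred over the lists are shown first, since the positions of the peaks are what the lists support best. For each gene 1 or 2 sites are printed, chosen among those with the GGAC core where the gene had one, and then by the number of lists, so sites without that core can lie in peaks of more lists. They are in genome build GRCh38, 5′ to 3′ on the transcript strand, with 5 bases matching the DRACH context in capitals. DRACH stands for A, G or T, then A or G, then AC, then A, C or T, and GGAC is its most common core. A match marks a candidate position within a peak and not a measured methylated base.
RARA, last exon, 3′UTR, 187 bases after the stop codon, 5 lists, chr17:40356401-40356425, plus strand: ggccctcagtGGACTgcctgctccc
RARA, exon 2, 5′UTR, 5 lists, chr17:40331077-40331101, plus strand: agcagctccaGGACAgggcgggtgg
RARB, 5′UTR of the canonical transcript, 4 lists, chr3:25428649-25428673, plus strand: ggagttgggtGGACTtttctatgcc
RARB, 3′UTR of the canonical transcript, 95 bases after the stop codon, 4 lists, chr3:25596699-25596723, plus strand: cttagtttttGGACTgaaaagatat
RARG, 3′UTR, 2 lists, chr12:53211268-53211292, minus strand: accaaaaaggGGACAaaggagaagg
RXRA, 3′UTR, 564 bases after the stop codon, 6 lists, chr9:134437166-134437190, plus strand: ggatgagaggGGACTcgtggggcaa
RXRA, 3′UTR, 3872 bases after the stop codon, 5 lists, chr9:134440474-134440498, plus strand: agggtttgatGGACAgtagcattag
RXRB, 3′UTR, 55 bases after the stop codon, 5 lists, chr6:33194615-33194639, minus strand: catccaagagGGACTccaagccctg
RXRB, coding part of exon 5, 2 lists, chr6:33196510-33196534, minus strand: agatgcctgtGGACAggatcctgga
CYP26A1, coding part of the last exon, 2 lists, chr10:93077249-93077273, plus strand: tgtatcctgtGGACAatctccctgc
CYP26B1, coding part of the last exon, 3 lists, chr2:72132273-72132297, minus strand: tctttggcctGGACTccaaccagaa
ALDH1A1, coding part of exon 1, 3 lists, chr9:72952966-72952990, minus strand: caggcacgccAGACTtacctgtcct
ALDH1A2, exon of longer transcripts upstream, 3 lists, chr15:58279297-58279321, minus strand: gtgctaattgGGACTgggaagggtt
ALDH1A2, exon of longer transcripts upstream, 3 lists, chr15:58331199-58331223, minus strand: tcaggagggaGGACAgcttcagtaa
The ALDH1A1 site is the single one of these 14 without the GGAC core.

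The reads of a row did not always belong to its coordinates, and this set which values could be used. Rows at the 2 ends of the lists, in the character order of the peak numbers, showed the relation that read counts should have to position. Across these rows Spearman's rho between the exonic length of a peak and its IP plus input reads was 0.587 for hPSC, 0.536 for DE, 0.521 for PP and 0.549 for hILO, with 0.586 for WT PP and 0.533 for A5-KO PP. Across the rows in between it was 0.019, 0.024, 0.014, 0.003, -0.002 and 0.010 in the same order. The end rows were chosen on this same measure, in windows of 250 peaks with a rho of at least 0.3, so these values describe the choice. The input reads of neighbouring peaks of a transcript were not used for it and differed too, with rho of 0.494 to 0.678 at the ends and 0.233 to 0.299 in between. These are descriptions over peaks that share libraries, and peaks are not replicates. Of the 107 member peaks, 19 lay in the rows whose reads followed the coordinates, and they were all the RARA and ALDH1A2 peaks of hPSC, DE, PP and hILO. Reads and log2 enrichment are therefore given for those 19 peaks alone, and positions, peak numbers and sequence for all 107. Which peaks were kept in a list also rested on these values, and between 0.136% of the peak numbers (hPSC) and 9.51% (WT PP) had no row.

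**Figure D1:**
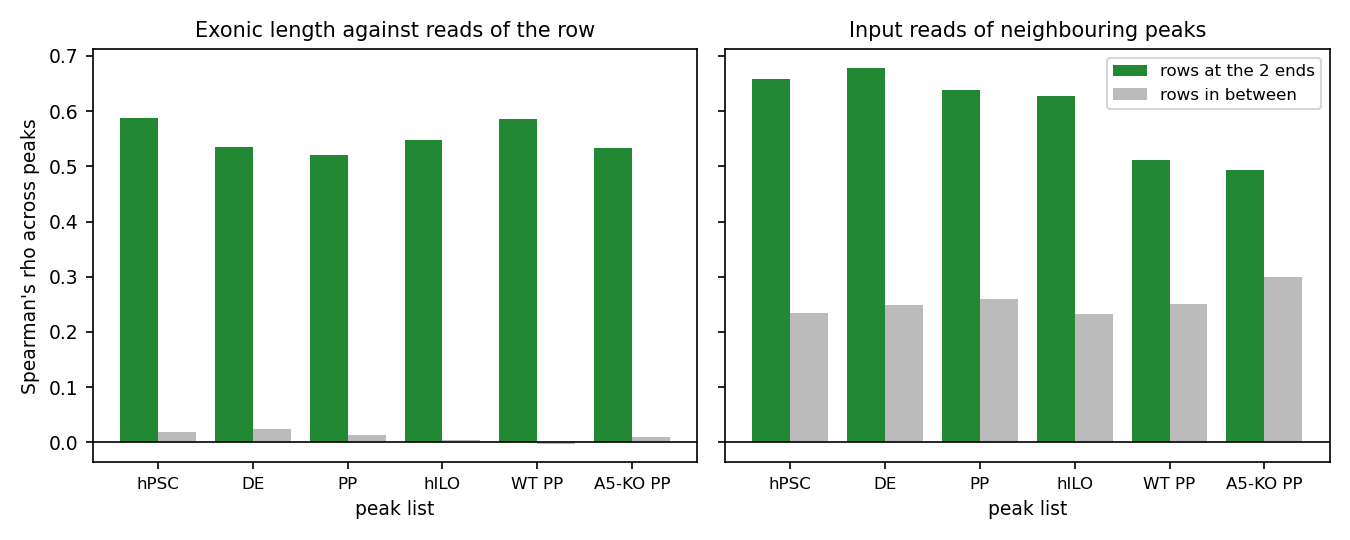
Spearman's rho across peaks between exonic length and the reads of the row (left) and between the input reads of neighbouring peaks (right), for the 6 lists; green bars are rows at the 2 ends of the character order of peak numbers and grey bars the rows in between. On the left, the measure by which the end rows were chosen, the green bars stand at 0.521 to 0.587 and the grey bars at -0.002 to 0.024, and on the right, a measure not used for the choice, at 0.494 to 0.678 and 0.233 to 0.299.

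The labelled populations were checked by peaks on marker genes fixed for each of them, with transcripts of other cell types included. Of the 5 hPSC markers, 4 had peaks in both hPSC and DE, 3 in PP, 2 in hILO and 1 in each batch 2 list. POU5F1 and NANOG had them in hPSC and DE alone, SALL4 had them in all 6 lists, LIN28A at all 4 stages, and DNMT3B had none in hPSC and 1 in PP. Among the later markers, EOMES had 4 in DE alone, and the hormone genes INS, GCG and SST had them in hILO alone. Peaks were found on 5 of 5 DE markers in DE and 2 of 5 at each of the other stages. DE markers also had peaks on 4 of 5 genes in both batch 2 lists, where SOX17 had 3 (WT PP) and 2 (A5-KO PP). PP markers had peaks on 4 of 5 genes in PP and in hILO, on 5 of 5 in both batch 2 lists, on none in DE and on 2 of 5 in hPSC, where ONECUT1 had 5 and SOX9 had 2. Of the hILO markers 6 of 6 had peaks in hILO and 1 or 2 in every other list, with CHGA in all 6 lists and NEUROD1 at 4 peaks in A5-KO PP. Mesenchymal markers had peaks on 1, 2, 3 and 4 of 4 genes from hPSC to hILO, on 1 in WT PP and on 4 in A5-KO PP, and neural markers on 0 to 2 of 4. Their part in the results below was not tested. ALKBH5, the targeted gene, had 3 peaks at every stage of batch 1, and in batch 2 it had 4 (WT PP) and 5 (A5-KO PP). Its transcript was thus still listed in the library pools labelled A5-KO, and since the reads of those rows could not be used, the knockout was not checked here.

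Peaks were found on 6 of the 9 genes in hPSC, on 7 at each of the 3 later stages, and in batch 2 on 6 (WT PP) and 8 (A5-KO PP). Of all protein-coding genes 60.2% (Wilson 95% interval, counting error only, 59.51% to 60.87%) had a peak in hPSC. The share was 57.0% for DE, 52.2% for PP and 57.7% for hILO, and 62.8% for WT PP against 69.7% for A5-KO PP. With 9 genes the pathway cannot be set apart from that background. Member peaks numbered 16, 15, 13 and 19 at the successive stages from hPSC to hILO, and 14 and 30 in the WT and A5-KO PP of batch 2. RARA, RXRA, RXRB and ALDH1A2 had peaks in every list, and the other 5 genes lacked a peak in at least 1 list. A gene with no peak may lack the mark or may lack transcript, and the lists cannot tell these apart, nor fewer cells of a type from less RNA per cell.

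**Figure D2:**
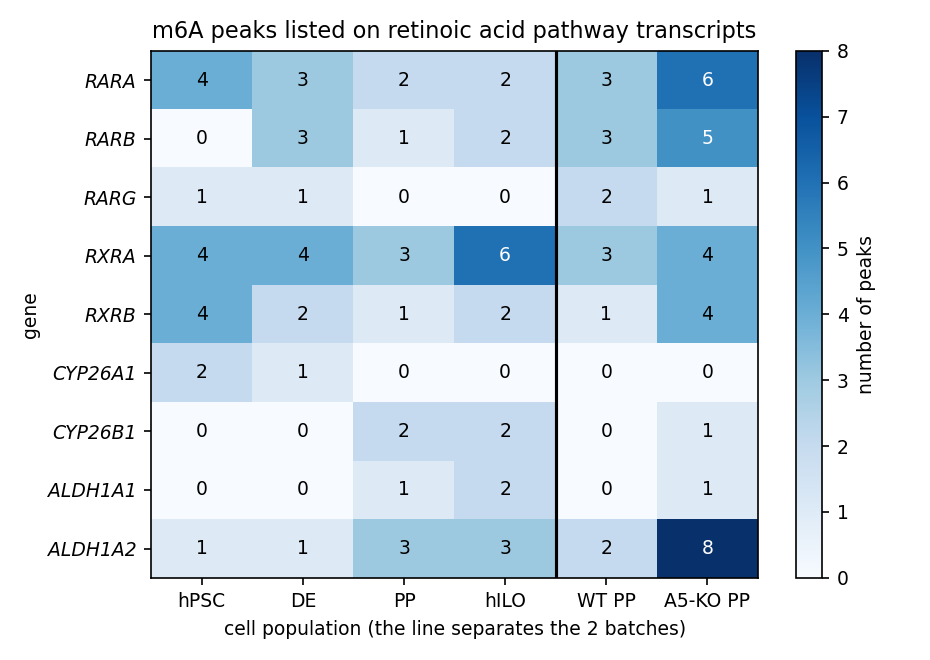
Number of m6A peaks (colour and digit) on each of the 9 genes (rows) in each population (columns), with a line between the 2 batches. CYP26A1 has peaks in hPSC and DE alone, while ALDH1A2 reaches 8 and RARA 6 in A5-KO PP.

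The receptor RARA, on chr17:40309180-40357643, carried peaks in exon 2, over the start codon, and in the last exon, exon 9, in every population. The latter lay at and after the stop codon in 5 lists, while in A5-KO PP they began 225 bases after it. A stretch of 175 bases of exon 2 (chr17:40331136-40331310) and one of 50 bases of the last exon (chr17:40356451-40356500) were within peaks of all 6 lists. From hPSC to hILO it had 4, 3, 2 and 2 peaks, and batch 2 listed 3 for WT PP and 6 for A5-KO PP. The hPSC peaks at chr17:40356051-40356100 and chr17:40341602-40342423 did not reach p below 1e-05 (peak caller's p 0.0030 and 0.0060). All RARA peaks of DE, PP and hILO did, so at that threshold hPSC did not exceed the later stages. Its reads could be used in the 4 stages, and both regions stood well above input in each of them.

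In exon 2 of RARA the peak of hPSC (chr17:40330986-40331385) held 1190 IP and 80 input reads, and that of DE (chr17:40331086-40331360) 655 and 234. The PP peak (chr17:40331136-40331310) held 620 IP and 76 input reads, and the hILO peak (chr17:40331036-40331310) 1049 and 292. The log2 enrichment of IP over input, as the authors' peak caller gave it, was 2.25 ± 0.17 (counting SE) for hPSC, 1.74 ± 0.11 for DE, 1.55 ± 0.17 for PP and 1.55 ± 0.095 for hILO. It was not the log2 ratio of the printed reads shifted by a constant for each list. In PP, 620 IP and 76 input reads went with 1.55 here, and 151 and 57 with 1.44 at an ALDH1A2 peak. The counting SEs come from the reads and do not cover the caller's adjustment. By the caller's values the exon 2 level was highest in hPSC and close to equal in PP and hILO. From hPSC to DE it fell by 0.51 on the log2 scale, with a counting SE of 0.20 and a 95% interval of -0.90 to -0.12. The difference was -0.20 ± 0.21 from DE to PP and 0.0072 ± 0.20 from PP to hILO, both within counting error. The exon 2 peaks compared were 400, 275, 175 and 275 bases long from hPSC to hILO, and the counting errors do not cover this change of width.

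In the last exon of RARA the hPSC peak (chr17:40356176-40356675) held 1460 IP and 128 input reads and the DE peak (chr17:40356151-40356800) 1840 and 560. The PP peak (chr17:40356176-40356800) held 1907 and 253, and the hILO peak (chr17:40356226-40356800) 2331 and 600. Log2 enrichment was 1.86 ± 0.13 for hPSC, 1.76 ± 0.070 for DE, 1.72 ± 0.096 for PP and 1.80 ± 0.066 for hILO. By the caller's values these levels were nearly the same in the 4 stages. The differences of -0.097 ± 0.15, -0.047 ± 0.12 and 0.087 ± 0.12 between successive stages were all within counting error. No shared peak of RARA or ALDH1A2 moved by 1 log2 unit or more between successive stages. Of all shared peaks whose reads followed the coordinates, 3.00% of 8093 did so from hPSC to DE, 2.86% of 2310 from DE to PP and 2.14% of 1679 from PP to hILO. Their median differences were -0.12, -0.21 and -0.014 on the log2 scale, so the median of all shared peaks also lay lower in DE than in hPSC, by less than exon 2 of RARA. When log2 ratios of the raw reads were centred on the median of each list instead, the 3 differences of the last exon and those of exon 2 from DE to PP and from PP to hILO changed sign, while exon 2 still fell by 0.44 from hPSC to DE. On that scale hPSC no longer stood highest for exon 2, and PP lay above hILO. The centred differences from DE to PP were 0.75 ± 0.21 in exon 2 and 0.41 ± 0.12 in the last exon, beyond counting error. Those from PP to hILO were -0.43 ± 0.20 and -0.21 ± 0.12. The RARA rows of DE and PP were also those whose reads no longer counted as following the coordinates when a rho of at least 0.4 was asked for in place of 0.3.

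**Figure D3:**
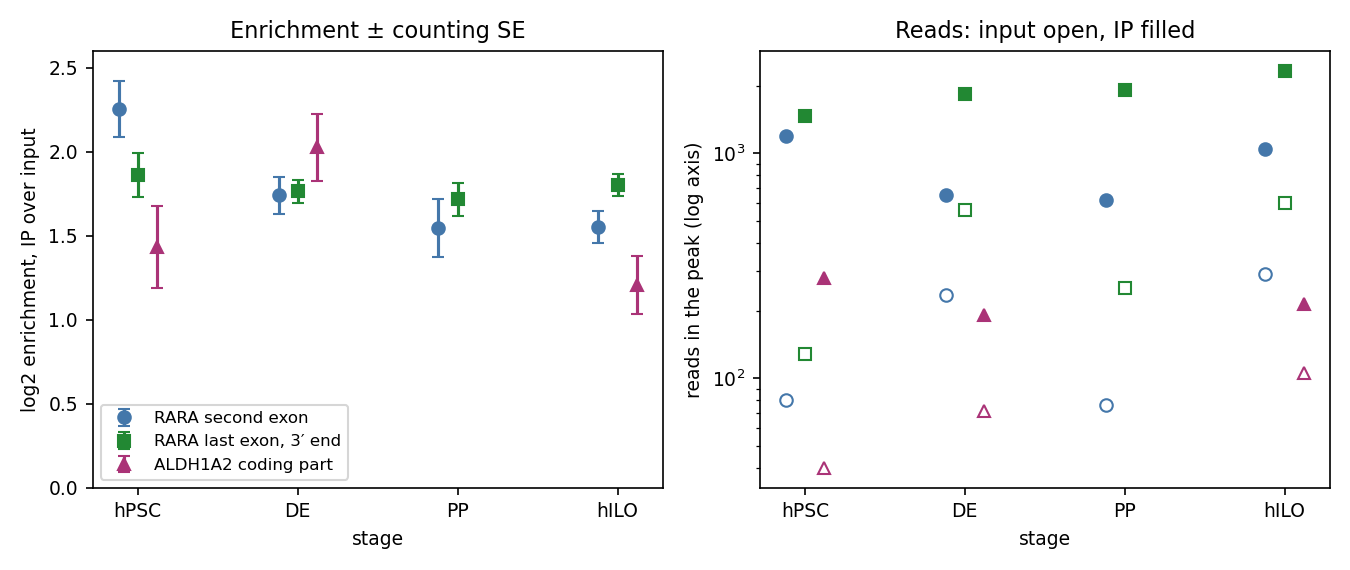
Left, log2 enrichment of IP over input with its counting SE for the peaks in exon 2 and the last exon of RARA and in the coding part of ALDH1A2, by stage; right, the reads behind them on a log axis, input open and IP filled. RARA's last exon stays between 1.72 and 1.86 while its exon 2 goes from 2.25 to 1.55, and ALDH1A2 has no such peak in PP.

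RARA had further peaks besides these. A peak of 50 bases in the last exon upstream of the stop codon (chr17:40356051-40356100) was listed in hPSC with 173 IP and 22 input reads and a log2 enrichment of 1.36. Peaks at chr17:40341602-40342423 in hPSC (95 IP and 5 input reads, 1.87 ± 0.63) and at chr17:40341552-40342498 in DE (397 and 122, 1.19) lay on exons absent from the canonical transcript and overlapped exons of the antisense gene RARA-AS1. With 5 input reads the former is poorly measured. In A5-KO PP the last exon held 3 short peaks, at chr17:40356451-40356500, chr17:40356676-40356800 and chr17:40357451-40357500, where WT PP had a long one at chr17:40356176-40356800 and a short one at chr17:40357001-40357050. The former 2 lay within the long peak of WT PP, while that at chr17:40357451-40357500 overlapped no WT PP peak. Of the 3 peaks by which A5-KO PP exceeded WT PP, 1 thus came from the last exon and 2 lay at RARA-AS1.

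RARB, the receptor gene that retinoic acid itself induces, had no peak in hPSC and had peaks in all later populations. The stages from hPSC to hILO listed 0, 3, 1 and 2 peaks, WT PP listed 3 and A5-KO PP 5. DE, which had not yet been given retinoic acid, thus already had 3. Its longest coding transcript has a coding length of 324 bases and holds bases of 6 of the 14 peaks, so RARB is described on its canonical transcript of 8 exons. A stretch of 50 bases just after the stop codon (chr3:25596636-25596685) was within a peak of every population but hPSC. A stretch of 125 bases of the 5′UTR and start codon region (chr3:25428644-25428768) was within a peak of DE, hILO, WT PP and A5-KO PP and not of PP. A5-KO PP and DE shared a spliced peak at chr3:25174482-25428343 further upstream. A5-KO PP alone had peaks at chr3:25597086-25597210 in the 3′UTR and at chr3:25462456-25501266. The latter covers 4498 exonic bases, mostly an exon that the canonical transcript lacks, and was the longest of the 107 peaks, whose median length was 175 bases.

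RARG, the remaining RAR, had the fewest peaks of the 5 member receptors, with 1 each in hPSC and DE, 0 in PP and hILO, 2 for WT PP and 1 for A5-KO PP. The peaks also changed place. In hPSC (chr12:53230054-53231451) and DE (chr12:53230029-53231451) they were spliced over 5′ exons, and in batch 2 they lay in the 3′UTR. WT PP had them at chr12:53211242-53211366 and chr12:53211567-53211666, and A5-KO PP at chr12:53211242-53211316. PP and WT PP, labelled as the same cell type and both without the knockout, therefore differed at RARG.

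RXRA, the main partner of the RARs, on chr9:134317098-134440585, had the most peaks of the 9 genes, 24 in all. The batch 1 lists held 4, 4, 3 and 6 of them in the order of the stages, and batch 2 held 3 (WT PP) and 4 (A5-KO PP). In 23 of the 24 the midpoint lay in the 3′UTR, which is 3971 bases long. In its first part 4 stretches were in peaks of all 6 lists, at chr9:134436659-134436708, chr9:134436734-134436808, chr9:134436834-134436933 and chr9:134437134-134437308. A further stretch of 150 bases at the very end of the transcript (chr9:134440434-134440583) was in a peak of 5 lists, PP being the exception. Between these ends lay peaks found in fewer lists, among them those at chr9:134439634-134439808 in PP and chr9:134439634-134439683 in hILO, and at chr9:134440134-134440308 in hILO alone. Single lists had others, at chr9:134439559-134439633 in hPSC, chr9:134437759-134437958 in WT PP and chr9:134439334-134439483 in A5-KO PP. The peak outside the 3′UTR was a spliced one of 75 bases in the coding part (chr9:134417256-134421678), in hILO. All RXRA rows also carried the identifier of the microRNA gene MIR4669.

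RXRB, the broadly expressed relative of RXRA on chromosome 6, had most peaks in hPSC and A5-KO PP, with 4 each, against 2 in DE and hILO and 1 in PP and WT PP. A stretch of 175 bases in the 3′UTR next to the stop codon (chr6:33194488-33194662) was in a peak of 5 lists and not in WT PP. The WT PP peak (chr6:33200244-33200318) and a peak of hPSC (chr6:33200494-33200593) lay at the 5′ end, where exons of SLC39A7 run antisense. A coding peak in exon 5 was listed in DE (chr6:33196515-33196589) and hILO (chr6:33196415-33196564). Further 3′UTR peaks were found in hPSC and A5-KO PP, and 10 of the 14 RXRB peaks had their midpoint in the 3′UTR.

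**Figure D4:**
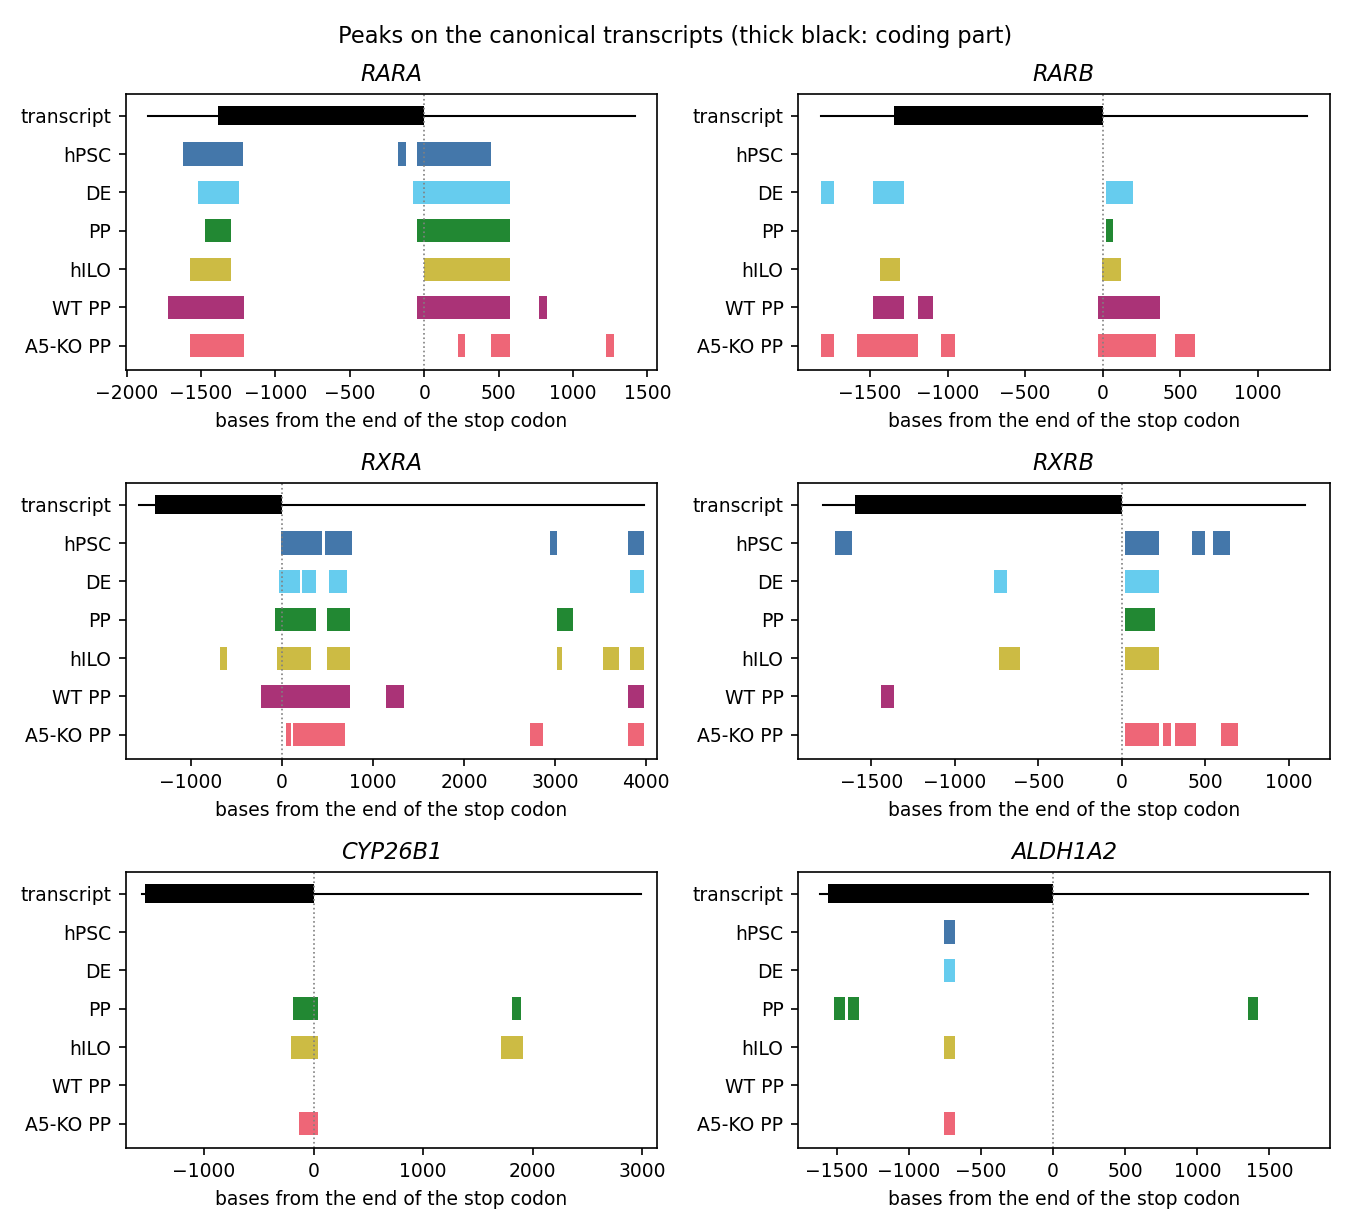
Peaks of 6 genes on their canonical transcripts, in bases from the end of the stop codon (dotted line), 1 row per population, with the coding part as a thick black bar. RARA has peaks near the start codon and in the last exon in all 6 lists, those of A5-KO PP in the last exon being short. RXRA has peaks in the first part of the 3′UTR in all 6 and at its end in all but PP. RARB lacks peaks in hPSC, RXRB lacks its stop-codon peak in WT PP and CYP26B1 has peaks in PP, hILO and A5-KO PP.

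The 2 hydroxylases that degrade retinoic acid were marked in different populations. CYP26A1 had 2 peaks in hPSC, 1 in DE and none elsewhere, whereas CYP26B1 had 2 each in PP and hILO, 1 in A5-KO PP and none in hPSC, DE and WT PP. No list held peaks on both. Both genes had a peak at the stop codon. The CYP26A1 peak there was at chr10:93077200-93077399 in hPSC and chr10:93077225-93077449 in DE, and its rows were also assigned to CYP26C1 and to ENSG00000285846. A peak at the start of CYP26A1 (chr10:93073600-93073957) was listed in hPSC. The stop-codon peak of CYP26B1 ran from chr2:72132188-72132412 in PP to chr2:72132188-72132437 in hILO and chr2:72132188-72132362 in A5-KO PP. A peak further down its 3′UTR lay at chr2:72130338-72130412 in PP and chr2:72130313-72130512 in hILO. CYP26A1 is a gene that retinoic acid induces, and its peaks were listed in hPSC and DE, before retinoic acid was given, and in no later population. In the paper's protocol the media used after this exposure, on the way to PP and hILO, did not contain retinoic acid. A gene with no peak may also lack transcript, so the response of CYP26A1 to retinoic acid was not tested.

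ALDH1A1 and ALDH1A2, which make retinoic acid, had more listed peaks in PP and hILO than in hPSC and DE. At p below 1e-05 PP did not hold more ALDH1A2 peaks than DE, while hILO still did, and the p of the ALDH1A1 rows could not be used. The related ALDH1A3, no member here, had 1 each in hPSC and DE and none in PP and hILO. ALDH1A1 had none in hPSC, DE and WT PP, 1 in PP, 2 in hILO and 1 in A5-KO PP. A stretch of 120 bases over its first exon (chr9:72952935-72953054) was common to its PP, hILO and A5-KO PP peaks, and hILO had a peak at the stop codon too (chr9:72901121-72906022). It was the single member with no GGAC in any of its 4 peaks.

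ALDH1A2, the dehydrogenase that supplies the embryo with retinoic acid, had 1 peak each in hPSC and DE and 3 each in PP and hILO, and in batch 2 it had 2 (WT PP) and 8 (A5-KO PP). The same spliced peak of 175 exonic bases (chr15:57965749-57991519), of which 79 are coding in exon 9 and 96 are off the transcript, was listed in hPSC, DE, hILO and A5-KO PP. It held 279 IP and 40 input reads in hPSC, 191 and 72 in DE, and 214 and 106 in hILO. Log2 enrichment there was 1.43 ± 0.24 in hPSC, 2.03 ± 0.20 in DE and 1.21 ± 0.17 in hILO. The difference from hPSC to DE was 0.59 ± 0.31 with a 95% interval of -0.022 to 1.21, which includes 0. The peak caller's p for this peak was 2.9e-04 in hPSC, 8.3e-09 in DE and 1.3e-05 in hILO, below 1e-05 in DE alone. PP, the list between DE and hILO, did not have this peak. Its 3 peaks lay elsewhere, in the 3′UTR (chr15:57953774-57953848, 367 IP and 172 input reads, 1.22 ± 0.13), in exon 3 (chr15:58014189-58014263, 159 and 74, 1.16 ± 0.20) and near the transcript start (chr15:58058040-58065614, 151 and 57, 1.44 ± 0.22), the last over exons of ALDH1A2-AS1 on the other strand. Of these the 3′UTR peak alone had a caller's p below 1e-05 (1.6e-06).

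The remaining ALDH1A2 peaks had no bases on the exons of the canonical transcript. Apart from a peak of A5-KO PP they lay upstream of its start, on exons of longer annotated transcripts. They were 11 of the 18 ALDH1A2 peaks, with 2 each for hILO and WT PP and 7 for A5-KO PP. In hILO the peak at chr15:58138738-58164038 held 518 IP and 365 input reads (0.77) and that at chr15:58279240-58331271 held 1671 and 1230 (0.68), the lowest enrichments of the ALDH1A2 peaks with usable reads. The latter was listed in WT PP and A5-KO PP as well. The rise from 2 peaks in WT PP to 8 in A5-KO PP was thus made up of peaks off the canonical transcript and of the coding peak named above. Reads of those rows could not be used.

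Member peaks were next compared between successive stages. Sharing asked that over 50% of the exonic length of a peak be covered, on its own strand, by a single peak of the other list. The overlap is that of the study's rule for inherited peaks, whose filter on transcript level was not applied. Of the DE peaks 10 of 15 were shared with hPSC, against 63.4% of all DE peaks. Of the PP peaks 5 of 13 were shared with DE, against 55.7%, and of the hILO peaks 8 of 19 with PP, against 43.1%. The DE peaks not shared with hPSC were 3 of RARB, 1 of RARA and 1 of RXRB. The PP peaks not shared with DE were the 3 of ALDH1A2, the 2 of CYP26B1, the 1 of ALDH1A1 and 2 of RXRA, of which one overlapped a single DE peak over exactly 50% of its length and was covered to 83.3% by 2 DE peaks together. Counted against all DE peaks together, 6 of 13 PP peaks were shared, against 57.0% of all. All 3 ALDH1A2 peaks and both RARB peaks of hILO fell outside the shared set, while all RARA peaks of PP and hILO were in it.

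Pancreatic progenitors were measured in both batches. WT PP shared 5 of the 13 peaks of PP (57.2% of all peaks of PP), namely the 2 of RARA, the 1 of RARB and 2 of the 3 of RXRA. Where over 50% of both peaks had to overlap, 1 of the 13 was shared, against 24.0% of all peaks of PP. In the other direction 1 of the 14 WT PP peaks, on RARA, was shared with PP, against 19.6% of all WT PP peaks, and 4 of 14 with any overlap. Counted against all PP peaks together it was 2 of 14 (22.4% of all), since the long RXRA peak of WT PP was then covered to 71.8%. CYP26B1, ALDH1A1, the 3 batch 1 peaks of ALDH1A2 and the 3′UTR peak of RXRB were listed in PP and not in WT PP, and RARG in WT PP and not in PP. Batch, antibody, RNA type and library kit cannot be told apart here.

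A5-KO PP had 30 member peaks and WT PP 14, while the lists held 55219 and 43312 peaks in all. Of the A5-KO PP peaks 9 of 30 were shared with WT PP, against 45.9% of all A5-KO PP peaks, and of the WT PP peaks 7 of 14 were shared with A5-KO PP, against 46.8%. The A5-KO PP peaks outside the shared set included 7 of 8 on ALDH1A2, 4 of 5 on RARB, all 4 on RXRB, 3 of 6 on RARA and those on CYP26B1 and ALDH1A1, whereas 3 of 4 on RXRA were shared. RARG went the other way, with 2 peaks for WT PP and 1 for A5-KO PP. Peak numbers of 7 genes were higher in A5-KO PP, that of RARG was lower and that of CYP26A1 was 0 in both. Of all protein-coding genes 33.2% had more peaks in A5-KO PP and 24.7% fewer. There was 1 list of each genotype, so the spread between libraries is not known and the difference could not be tested. CYP26B1 and ALDH1A1, absent from WT PP, were listed in A5-KO PP as in the PP of batch 1.

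**Figure D5:**
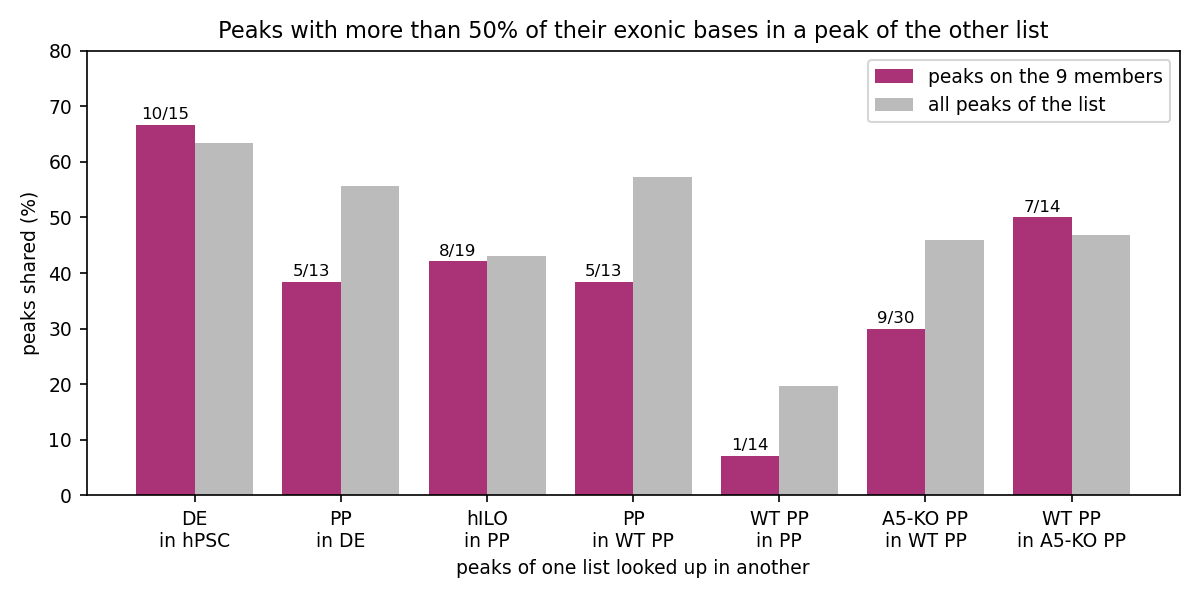
Percentage of the peaks of a list with more than 50% of their exonic bases in a single peak of another list, for the 9 genes (purple, with counts) and for all peaks (grey). The members stand close to all peaks for DE in hPSC (10 of 15), hILO in PP (8 of 19) and WT PP in A5-KO PP (7 of 14), and lower for PP in DE (5 of 13) and A5-KO PP in WT PP (9 of 30).

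The place of the peaks on the transcript differed between the genes. Midpoints were taken over those bases of a peak that lie on the transcript. On the longest coding transcript 50 of the 107 peaks had their midpoint in the 3′UTR, 26 in the coding part and 10 in the 5′UTR. The other 21 lay wholly on exons that this transcript does not have. Of the 86 that could be placed, 58.1% were thus in the 3′UTR, and 35 (40.7%) lay within 400 bases of the stop codon. On canonical transcripts 55 lay in the 3′UTR and 15 off the transcript. Over all peaks that could be placed, 35.0% to 42.7% of the midpoints of a list were in the 3′UTR, and 29.5% to 34.9% within 400 bases of the stop codon. The 3′UTR share of the members came largely from RXRA (23 of 24) and RXRB (10 of 14), without which 17 of 48 (35.4%) were there, while on the same transcripts ALDH1A2 had 1 of 18 and ALDH1A1 0 of 4. RARB had 1 of 14 there and 6 of 14 on its canonical transcript. Of the 107 peaks, 35 were spliced over more than 1 exonic block, 9 overlapped exons on the opposite strand and 27 had rows that carried another gene as well. Whether the reads were assigned by strand in the peak counting was not given in the sources used here, so peaks over antisense exons are uncertain.

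DRACH was found in 102 of the 107 member peaks and the GGAC core in 77, reading the transcript strand. GGAC was counted whichever base followed it, so not every GGAC is a DRACH site. The A5-KO PP peaks at chr17:40357451-40357500 and chr9:134436659-134436708 held GGAC without any DRACH site. In peaks of the same list within 10% of the same length, GGAC would give 59.9 of 107 and DRACH 99.3. GGAC was in 20 of 24 peaks of RXRA, 16 of 20 of RARA, 12 of 14 of RARB and 11 of 14 of RXRB, and in 10 of 18 of ALDH1A2. By list, 11 of 16 member peaks of hPSC held it, 13 of 15 of DE, 6 of 13 of PP, 12 of 19 of hILO, 12 of 14 of WT PP and 23 of 30 of A5-KO PP, beside 51.1% to 57.6% of all peaks. PP was the list in which members fell below the 6.68 that peaks of the same length would give. Overlapping peaks of different lists hold the same sequence, so these counts are not independent.

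The wider pathway was described with 37 further genes. Of these 22, 25, 21 and 24 had a peak at the stages from hPSC to hILO, and batch 2 had 26 for WT PP and 29 for A5-KO PP. These are shares of 59.5%, 67.6%, 56.8% and 64.9% at the stages, and of 70.3% (WT PP) and 78.4% (A5-KO PP). Of all protein-coding genes 60.2%, 57.0%, 52.2% and 57.7% had a peak at the stages, and 62.8% and 69.7% in batch 2. Peaks at all 4 stages were listed on 14. Among cofactors of the receptors, the coactivator NCOA1 had 43 peaks over the 6 lists. Among the genes around retinol, the uptake receptor STRA6 and the storage enzyme LRAT had 14 each and the oxidoreductase RDH11 had 21. The dehydrogenase ALDH1A3 had 3 peaks, the third in A5-KO PP, the binding protein FABP5 had 10, the hydroxylase CYP26C1 had 4, of which those in hPSC and DE were the CYP26A1 rows above, and the receptor RXRG had 2, both in A5-KO PP.

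Known target genes of retinoic acid had peaks on 2 of 9 in hPSC, 4 each in DE and PP, 5 each in hILO and WT PP and 7 in A5-KO PP. For comparison, the shares of all protein-coding genes in these lists, given above, ran from 52.2% to 69.7%. MEIS2, a homeobox partner of HOX proteins, had the most, with 0, 2, 7 and 5 from hPSC to hILO, 12 for WT PP and 8 for A5-KO PP. HOXB1 and the binding protein CRABP1 had 1 peak each, in hPSC, and the coactivator KAT2B had 1, in PP. TGM2 and RARRES1 each had 1 in hILO and 1 in A5-KO PP, and the retinol carrier RBP4 had 1 in hILO. TTR, which travels with RBP4 in blood, had 1 in hILO and 2 in each list of batch 2. No peak was listed on the oxidoreductase DHRS9 in any population.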

How the data were processed

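m6A-seq peak lists of 6 populations were used, each pooling 2 IP and 2 input libraries. Reads had been trimmed with fastp and aligned by HISAT2 (GRCh38, at most 1 alignment for each read), and peaks called with exomePeak2. The study states an IP/input of at least 1.5 and p below 1e-05, and 54.1% to 94.3% of the rows of a list had such a p, so the peak numbers include rows that do not meet it. The deposited read counts of IP and input, the log2 enrichment that the authors' caller gave and its p-values were used as deposited, and the depth of single libraries was not in the lists. Exonic blocks, transcript regions and motifs were computed from GENCODE 44 and its genome with Python 3.11.15, pandas 2.3.3 and NumPy 2.4.6 (figures with matplotlib 3.10.9), on the longest coding transcript of a gene and on canonical transcripts. The methods were tested on simulated data.

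Rows were examined in windows of 250 peaks, in the character order of peak numbers, and a row's reads were taken to follow its coordinates where the rho between exonic length and reads was at least 0.3 from the end of the list inward. Counting errors added 0.5 to each count. The test planned for A5-KO PP against WT PP needed counts per library and was not made. Members and gene lists were chosen with earlier results of these data known. All 9 members were named, and of the other pathway genes the one with the most peaks in each role class and those with peaks in exactly 1 of the 4 stages. Some genes that this rule names are not reported here. Peaks to be given in full were those with at least 50 input reads or the highest enrichment in a list, which could be applied to RARA and ALDH1A2 in the 4 stages alone; weaker RARA and ALDH1A2 peaks were named after their values were seen. Likeness to RARB and CYP26A1 by IP reads was not computed for the same reason. Alternatives were other overlap rules (coverage by all peaks of the other list together was added after seeing the data), thresholds, isoforms and window settings.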

Additional observations from a re-analysis of the deposited data

How the results depend on the processing

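No paired analysis was possible because each list pools the libraries of its population. Fits that leave out a library, count models and unfiltered lists were not run for the same reason, and thresholds on reads could be applied to the RARA and ALDH1A2 peaks of the 4 stages alone. Of 80 alternatives over 33 results, 62 left the value within the range set for it, 13 moved it and 5 reversed it. The number of RARA and ALDH1A2 peaks went from 5 in hPSC to 2 at p below 1e-05, to 2 at p below 1e-10 and to 2 with at least 50 input reads, from 4 in DE to 2 at p below 1e-10, from 5 in PP to 3 at p below 1e-05 and 1 at p below 1e-10, and from 5 in hILO to 3 at IP/input of at least 2 and 3 at p below 1e-10. Sharing of WT PP peaks with PP went from 1 to 4 with any overlap and to 2 when covered by all PP peaks together, that of PP peaks with WT PP from 5 to 1 with reciprocal overlap (the last 2 settings were chosen after seeing the data), and peaks in coding sequence from 26 to 42 when any overlap with the region counted. The RARA and ALDH1A2 peaks of hPSC with a DRACH site went from 5 to 2 with at least 50 input reads. Reversed were differences in log2 enrichment of RARA when raw ratios were centred on the list median. In the last exon they went from -0.097 to 0.17 (DE minus hPSC), from -0.047 to 0.41 (PP minus DE) and from 0.087 to -0.21 (hILO minus PP), and in exon 2 from -0.20 to 0.75 (PP minus DE) and from 0.0072 to -0.43 (hILO minus PP). The cause was not tested, and these differences have no fixed direction. With windows of 500 or 100 peaks, tried after seeing the data, 19 member peaks again had reads that followed the coordinates, and with a rho of at least 0.4 there were 14, the rows lost being the 3 of RARA in DE and the 2 of RARA in PP, on which all RARA differences rest. The positions, and not the reads, set what the remaining 88 member peaks can show.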
